A study of Homo sapiens with 4 samples.

Results

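Desmosomes are the junctions through which epithelial cells anchor their intermediate filaments to one another. The genes described here are 10 that build them or the cornified envelope of stratified epithelia: the desmosomal cadherins DSG2, DSG3, DSC2 and DSC3, the plakophilins PKP1, PKP2 and PKP3, and the plakins DSP, PPL and EVPL. They were taken by name, as every probe set annotated with exactly 1 of these symbols, which gave 20 probe sets of 10 genes out of 41097 single-symbol probe sets of 19775 genes. RNA of the human line MDA-MB-231, a breast carcinoma of mesenchymal-like type, was read on 4 Affymetrix U133 Plus 2 arrays. The 4 groups, with 1 array each, were cells stably transduced with shRNA against ZEB2, cells stably transduced with the control vector pLVTH, cells transfected with a pool of siRNA against ZEB2, and cells transfected with siRNA against luciferase. The transfected cells received 20 nM siRNA, were washed after 24 hours and were harvested after a further 48 hours, whereas no time of harvest is given for the stable lines. The labels do not say whether the stable lines were clones or pools. All values are log2 expression per probe set, so a difference of 1 is 2-fold, and with single arrays no difference has a replicate behind it. The first 2 groups are called the stable pair below and the last 2 the transient pair, and differences are knockdown minus control. Levels of different probe sets cannot be set against each other.

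In a desmosome the desmogleins and desmocollins reach across the gap between cells. Their tails bind plakoglobin and the plakophilins, which bind desmoplakin, the product of DSP, and desmoplakin binds keratin filaments. Periplakin and envoplakin, the products of PPL and EVPL, are plakins that pair with each other and are cross-linked by transglutaminases into the cornified envelope of keratinocytes. ZEB2 is a zinc-finger repressor of epithelial genes that binds E-boxes of the CACCTG type, and its knockdown in a mesenchymal-like line asks which epithelial genes respond to its loss.

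Promoters of 6 of the 10 members were matched in the RefSeq table of GRCh38.p14, in 7 windows, since DSC2 has 2 starts there. The 250 bases before each start were searched for CACCTG and CAGGTG, which are the same E-box on the 2 strands and do not overlap each other here. Of all 35116 windows of this length, 17.5% held at least 1 such box and 2.53% held 2 or more. DSP and DSG2 held 2 boxes each, and DSC2 held 1 at its upstream start and none at the other. DSG3, DSC3 and PKP1 held none in this window. The windows of the 3 genes with a box are shown, so that they can be set beside the differences of these genes given below. The capitals mark the boxes, and each sequence runs 5′ to 3′ along the gene's own strand and ends at the base before the start. The DSP window is chr6:7541421-7541670 on the plus strand, with boxes beginning 178 and 85 bases before the start. The DSG2 window is chr18:31497927-31498176 on the plus strand, with boxes at 232 and 116 bases. The DSC2 window is chr18:31102422-31102671 on the minus strand, with its box at 156 bases. A match describes the letters alone, and binding of ZEB2 was not measured here.
DSP: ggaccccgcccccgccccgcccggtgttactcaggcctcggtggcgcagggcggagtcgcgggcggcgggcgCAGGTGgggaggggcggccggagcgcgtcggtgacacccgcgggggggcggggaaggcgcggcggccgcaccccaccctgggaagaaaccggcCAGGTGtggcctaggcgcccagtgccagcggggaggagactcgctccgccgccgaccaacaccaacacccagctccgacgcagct
DSG2: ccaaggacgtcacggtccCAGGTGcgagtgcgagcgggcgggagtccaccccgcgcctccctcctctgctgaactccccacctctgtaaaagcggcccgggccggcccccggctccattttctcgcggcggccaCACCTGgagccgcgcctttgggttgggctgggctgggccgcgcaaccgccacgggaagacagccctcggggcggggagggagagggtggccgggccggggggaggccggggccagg
DSC2: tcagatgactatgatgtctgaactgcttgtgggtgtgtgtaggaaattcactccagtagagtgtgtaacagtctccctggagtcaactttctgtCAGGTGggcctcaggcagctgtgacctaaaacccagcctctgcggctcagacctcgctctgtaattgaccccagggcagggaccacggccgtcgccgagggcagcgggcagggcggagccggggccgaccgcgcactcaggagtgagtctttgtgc

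The arrays differed by pair as well as by knockdown. The targeted gene was low on both knockdown arrays: the brightest ZEB2 probe set read 3.52 with shRNA against ZEB2 and 6.12 in the shRNA control, and 3.51 with siRNA against ZEB2 and 6.56 in the siRNA control. Of 8 genes listed as markers of the line, 7 were measured and all read at least 10.59 on every array, among them VIM at 13.64 to 14.12. The widest difference in that list was that of FN1, at 0.54 in the stable pair and -0.98 in the transient pair. On both siRNA arrays the signal of 3 control transcripts was weaker toward the 5′ end, relative to the 3′ end, than on the shRNA arrays. For ACTB the 3′ probe set exceeded the 5′ one by 0.52 with siRNA against ZEB2 and 0.50 in the siRNA control, against -0.03 and -0.04 on the shRNA arrays with and without knockdown. For GAPDH the same gap was 0.19 and 0.11 on the siRNA arrays, against -0.07 and -0.07. The control transcript named ISGF3A in its probe set ID gave 4.52 and 4.44 on the siRNA arrays, with and without ZEB2 knockdown, against 1.37 and 1.95 on the shRNA arrays. Arrays of 1 pair were therefore alike in this measure for ACTB and GAPDH, while arrays of different pairs were not.

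**Figure D1:**
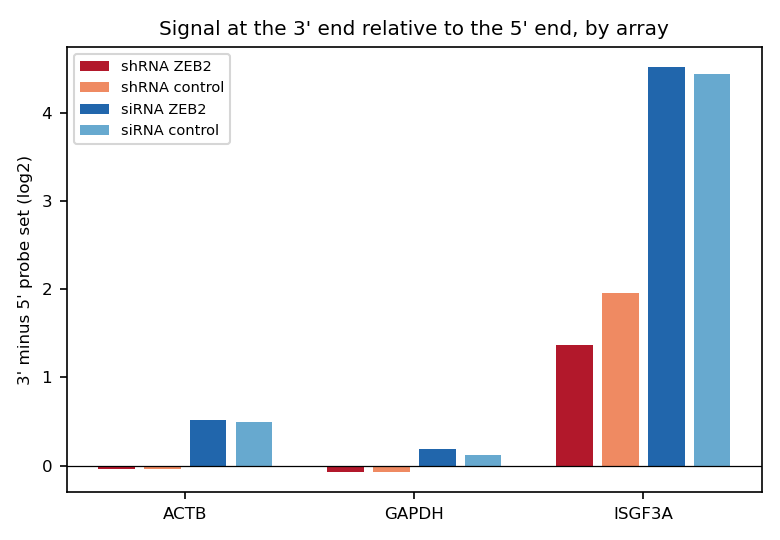
Difference in log2 signal between the 3′ and the 5′ control probe set of 3 transcripts, 1 bar per array (no replicates). The ACTB and GAPDH bars of both siRNA arrays lie above 0 and those of both shRNA arrays below it.

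Of the 20 member probe sets, 13 reached the filter level of 4.77, the 40th percentile of all values, on at least 1 array. These 13 belong to 8 genes. DSG3, a desmoglein of stratified epithelia, stayed between 2.73 and 4.45 in its 2 probe sets on all 4 arrays. DSC3, its desmocollin counterpart, stayed between 2.76 and 3.40 in 3 probe sets. The desmosomal cadherins typical of stratified epithelia were thus under the filter level everywhere, and their differences, between -0.26 and 0.21 within the pairs, cannot be read. DSG1, DSC1 and DSG4, further desmosomal cadherins of stratified epithelia or hair, were also under it, at 2.67 to 2.83, 2.59 to 2.79 and 2.70 to 2.90.

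**Figure D2:**
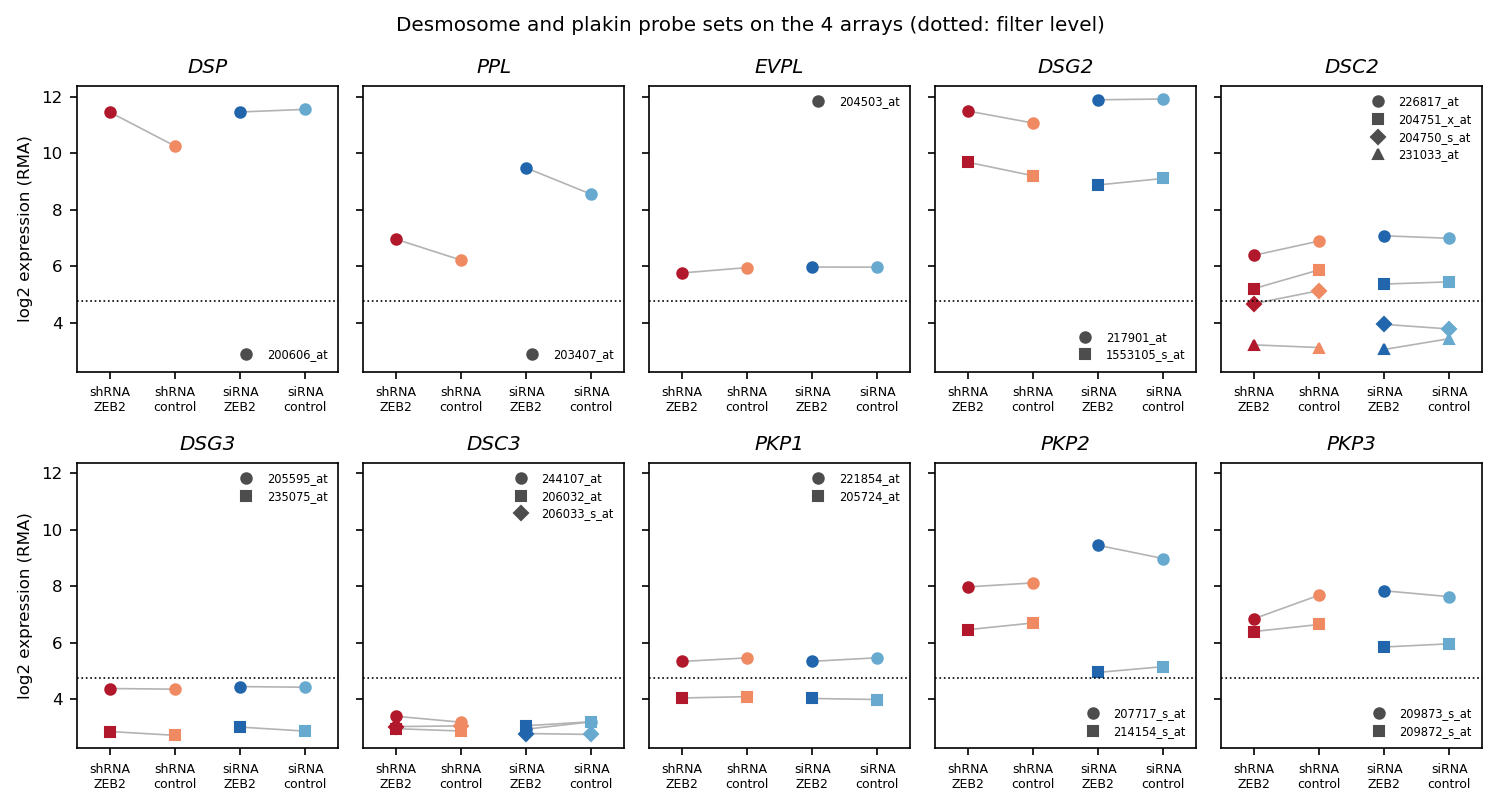
Log2 expression of the 20 member probe sets on the 4 arrays, with 1 panel per gene, 1 marker shape per probe set and lines joining the arrays of a pair. PPL is above its control in both pairs, DSP is low in the shRNA control alone, and DSG3 and DSC3 lie under the dotted filter level of 4.77.

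Among the plakins, PPL was higher in both knockdowns, DSP in the stable one, and EVPL moved with neither. PPL read 6.96 with shRNA against ZEB2 and 6.22 in the shRNA control, and 9.49 with siRNA against ZEB2 and 8.55 in the siRNA control. Each knockdown array lay above its own control, but both shRNA arrays lay below both siRNA arrays. The differences were 0.74 in the stable pair (1.67-fold) and 0.93 in the transient pair (1.91-fold). In the transient pair only 10 of the 15082 genes kept by the filter differed more in the upward direction, and in the stable pair PPL ranked 705 from the highest. PPL was represented by a single probe set, so nothing on the array checks it. In RNA of a whole culture, more cells with a transcript and more transcript per cell cannot be told apart.

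DSP, the obligate link between the desmosomal plaque and keratin, read 11.46 with shRNA against ZEB2 and 10.26 in the shRNA control. It read 11.47 with siRNA against ZEB2 and 11.56 in the siRNA control. The shRNA control was the low array, and the other 3 lay between 11.46 and 11.56. The difference was 1.20 in the stable pair (2.30-fold, rank 252 of 15082) and -0.09 in the transient pair. Set against the siRNA control instead of its own, which was decided once the values were known, the shRNA knockdown differed by -0.10 in DSP and by -1.59 in PPL. Over the 10 members that exchange of controls gave 0 at least 2-fold higher (3.14% of genes kept) and 2 at least 2-fold lower, PPL and PKP2 (8.17%), by brightest probe set. The other PKP2 probe set went the opposite way there, at 1.31. DSP also has a single probe set.

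EVPL, the partner of periplakin, read 5.77 with shRNA against ZEB2, 5.96 in the shRNA control, and 5.98 and 5.97 on the siRNA arrays with and without ZEB2 knockdown. All 4 arrays lay within 0.21. Its difference was -0.19 in the stable pair and 0.00263 in the transient pair, while PPL was 1.91-fold higher in the transient pair. Its 1 probe set was close to the filter level, where RMA compresses differences.

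Desmosomal cadherins with readable levels went in opposite directions in the stable pair. DSG2, the desmoglein found wherever desmosomes form, read 11.50 with shRNA against ZEB2 and 11.08 in the shRNA control in its brightest probe set, and 11.90 and 11.93 with and without siRNA against ZEB2. Its second probe set read 9.69 and 9.21 on the shRNA arrays and 8.89 and 9.11 on the siRNA arrays, knockdown first. Both probe sets were higher in the stable knockdown, by 0.43 and 0.48, and both differed downward in the transient one, by -0.03 and -0.23. DSC2, the desmocollin of simple epithelia, read 6.39 with shRNA against ZEB2 and 6.90 in the shRNA control in its brightest probe set. It read 7.08 with siRNA against ZEB2 and 6.996 in the siRNA control. In the stable pair its 3 probe sets that reached the filter level differed by -0.51, -0.66 and -0.46, all downward, the last of them reaching that level on the shRNA control alone. The probe set at -0.66 read 5.21 to 5.88 over the 4 arrays, in the same dim range as EVPL. In the transient pair the same 3 differed by 0.09, -0.08 and 0.16, with no common sign. The fourth, under the filter level on every array, is not read. DSG2 and DSC2 lie in the same cadherin cluster on chromosome 18, with DSG3 between them, and in the stable pair they differed in opposite directions.

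Plakophilins bind the cadherin tails and recruit desmoplakin, and none of them was 2-fold different in either pair. PKP3 read 6.86 with shRNA against ZEB2 and 7.69 in the shRNA control, and 7.85 and 7.64 with and without siRNA against ZEB2, in its brightest probe set. The stable knockdown was the low array, with a difference of -0.83 (1.78-fold lower), against 0.21 in the transient pair. The other PKP3 probe set read 6.40 and 6.65 on the shRNA arrays and 5.85 and 5.97 on the siRNA arrays, knockdown first, with differences of -0.25 and -0.11. Both PKP3 probe sets were thus lower in the stable knockdown but by different amounts. Their gap of 0.58 compares with a median of 0.20 and a 90th percentile of 0.63 over the 3882 genes with 2 probe sets above the filter.

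PKP2, the plakophilin of simple epithelia and heart, read 7.98 with shRNA against ZEB2 and 8.12 in the shRNA control, and 9.45 with siRNA against ZEB2 and 8.99 in the siRNA control, in its brightest probe set. The other probe set read 6.47 and 6.71 on the shRNA arrays and 4.96 and 5.16 on the siRNA arrays, knockdown first. The siRNA arrays were thus the high ones in the first probe set and the low ones in the second. In the stable pair both differed slightly downward, by -0.14 and -0.24. In the transient pair they disagreed, at 0.47 and -0.20, and only 3.32% of genes with 2 probe sets had a gap as large, so no direction is given for PKP2. PKP1, the plakophilin of stratified epithelia, read 5.34 and 5.47 on the shRNA arrays and 5.35 and 5.47 on the siRNA arrays, knockdown first, and differed by -0.13 in each pair.

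**Figure D3:**
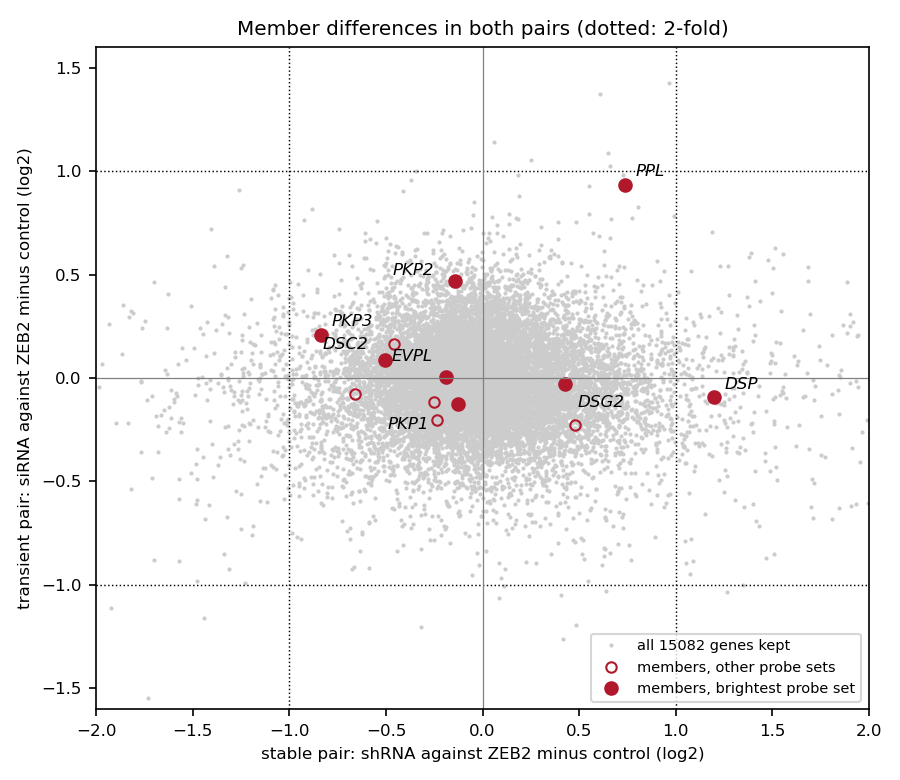
Knockdown minus control on the log2 scale in the stable pair (horizontal) and in the transient pair (vertical) for the 8 member genes kept (filled), their other probe sets above the filter (open) and all 15082 genes kept (grey, 119 of them outside the axes). PPL at 0.74 and 0.93 is the member farthest into the upper right, and DSP lies at 1.20 and -0.09.

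Counted over the 10 members by brightest probe set, 1 was at least 2-fold higher in the stable pair, DSP, where 2.39% of all genes kept were. No member was 2-fold lower, where 2.08% of genes were. In the transient pair 0 members were 2-fold higher and 0 were 2-fold lower, where 0.0464% and 0.126% of genes were. At 1.5-fold, DSP and PPL were higher in the stable pair (7.55% of genes) and PKP3 lower (7.11%), PPL was higher in the transient pair (0.69%), and 0 members were lower there (1.51%). At 3-fold 0 members were higher in the stable pair (0.835%). The median difference over the 8 members kept was -0.13 in the stable pair and 0.05 in the transient pair, against -0.02 and -0.02 over all genes kept. The pairs share no array. Of the 8 members kept, 2 had the same sign in both pairs, PPL upward and PKP1 downward, and 6 had opposite signs, where 48.5% of all genes kept had the same sign. This count holds for the brightest probe sets alone: the other PKP2 and PKP3 probe sets and 1 of DSC2 differed downward in both pairs, and the sign of EVPL in the transient pair rests on 0.00263.

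A common effect of both knockdowns was fitted with limma over the 4 arrays, with shRNA or siRNA as a block. The fit has 1 residual degree of freedom, taken from how far the pairs disagree. Because that is so little, limma draws each gene's error toward a level estimated over all genes kept. The SE and p of a gene therefore rest on that shared level as well as on its own gap. PKP1, which differed by -0.13 in each pair, had an SE of 0.14. PPL had a mean difference of 0.84 ± 0.17 (SE), with an unadjusted limma p of 0.00838 and an adjusted p of 0.971. It was higher in both pairs. Next among the members was DSP, at 0.55 ± 0.36 with an unadjusted limma p of 0.20. After Benjamini-Hochberg adjustment over all 15082 genes limma called 0 genes (0%), members included, while 384 genes had an unadjusted limma p under 0.05 (2.55%). The target ZEB2 had the same adjusted limma p of 0.971 and was not called either.

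The widest differences of these genes were between the control cultures, both of which keep ZEB2. The siRNA control exceeded the shRNA control by 2.33 in PPL (5.02-fold) and by 1.30 in DSP (2.46-fold). These 2 of the 10 members were at least 2-fold higher by brightest probe set, where 10.8% of genes kept were, and 0 were 2-fold lower, where 4.99% were. At 1.5-fold 4 were higher (21.9%) and 0 lower (12.1%), and PPL alone passed 3-fold (4.17%). DSG2 and PKP2 followed at 0.85 and 0.86 in their brightest probe sets. EVPL, PKP1, PKP3 and DSC2 lay between -0.05 and 0.10. The other probe sets above the filter all differed downward: PKP2 by -1.55, DSC2 by -0.42 and -1.36, PKP3 by -0.68 and DSG2 by -0.10. For PKP2, DSC2 and DSG2 this is the opposite sign to the brightest probe set, and for PKP3 the same. The DSC2 value of -1.36 comes from the probe set that reached the filter level on the shRNA control alone, so its size cannot be read. For PKP2 the gap between its probe sets was 2.41, and 2.40% of genes with 2 probe sets had one as large. Over those 3882 genes the dimmer probe set had the lower difference of the 2 in 61.9% in this comparison. That share was 47.5% in the stable pair and 48.6% in the transient pair. The siRNA arrays also had the stronger 3′ signal, and its part in these gaps was not tested. Method, culture and array cannot be told apart between the controls.

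**Figure D4:**
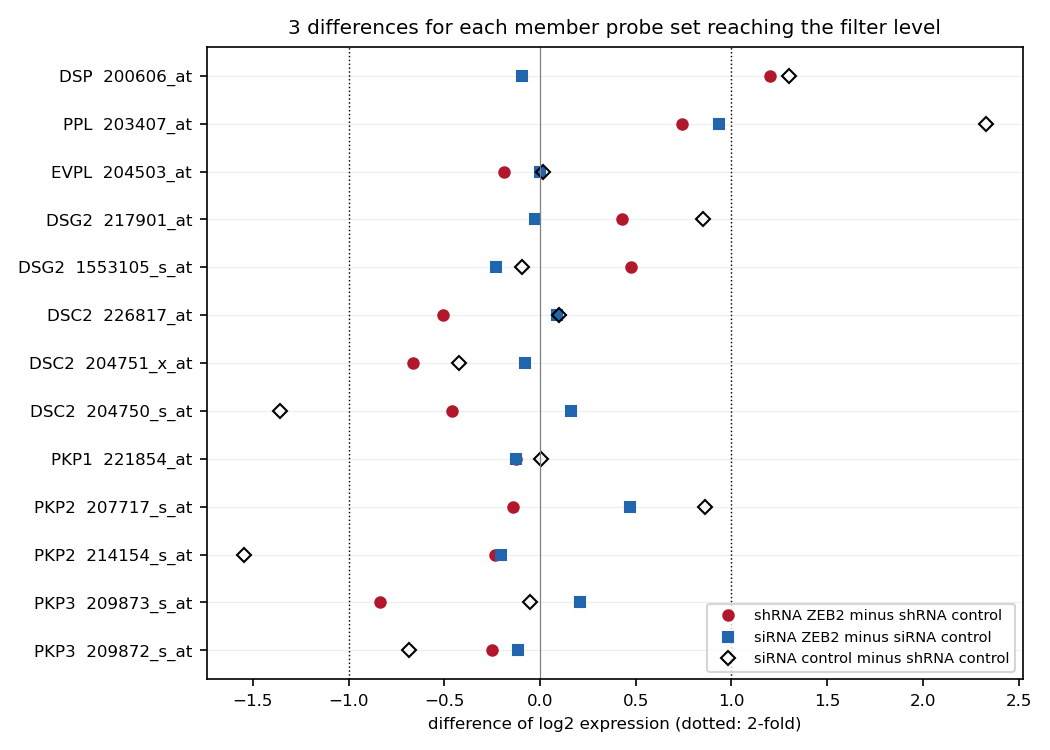
The 3 differences of log2 expression for each of the 13 member probe sets that reached the filter level. The open diamonds (siRNA control minus shRNA control) of PKP2, DSC2 and DSG2 fall on both sides of 0 for 1 gene, while the 3 DSC2 circles (stable pair) all lie left of it.

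Some markers of luminal breast cells were higher on the arrays where PPL was higher, and others were not. Of 10 such genes, 8 were kept, and their mean level was 8.63 with shRNA against ZEB2 and 8.01 in the shRNA control, and 9.40 with siRNA against ZEB2 and 9.20 in the siRNA control. In the stable pair 2 of them were at least 2-fold higher, the adhesion gene EPCAM at 1.39 and the receptor gene ERBB3 at 1.87, where 2.39% of genes kept were. Between the controls 4 were (10.8%), while in the transient pair 0 were (0.0464%). EPCAM read 8.40 and 7.01 on the shRNA arrays and 9.07 and 8.47 on the siRNA arrays, knockdown first. ERBB3 read 6.76 and 4.89, and 7.49 and 7.23, in the same order. The shRNA control was the low array for both, and their transient differences were 0.60 and 0.26. The 4.89 of ERBB3 is close to the filter level, so the size of its stable difference is uncertain. The luminal keratins differed little or downward, KRT8 by 0.17 and -0.02, KRT18 by 0.20 and -0.07 and KRT19 by -0.02 and -0.75 in the stable and transient pairs. In the same order GATA3 differed by 0.42 and 0.21 and ESR1 by 0.17 and 0.37. The median of the 8 genes was 0.31 in the stable pair and 0.24 in the transient pair. CDH1, which encodes E-cadherin of the adherens junction, read 4.26 and 3.54 on the shRNA arrays and 8.35 and 7.37 on the siRNA arrays, knockdown first. Both shRNA values of CDH1 are under the filter level, so their order cannot be read. CDH1 is among the 4 genes counted between the controls, and the size of that difference cannot be read either. PGR and FOXA1 never reached the filter level. Of 8 keratinocyte markers 4 were kept, with means of 7.24 and 6.49 on the shRNA arrays and 7.18 and 6.99 on the siRNA arrays, knockdown first. FLG alone, at 3.47, carried the stable difference, while KRT1 was at -0.26, KRT5 at -0.27 and KRT10 at 0.06, and the median of the 4 was -0.10. FLG read 4.91 in the shRNA control, close to the filter level, so the size of its stable difference is uncertain. Fibroblast markers (5 of 6 kept) averaged 6.29 and 5.43, and 6.64 and 6.56, in the same order. In that list LUM, which encodes lumican, read 6.80 and 2.92 on the shRNA arrays and 8.71 and 8.99 on the siRNA arrays. Its 2.92 in the shRNA control is under the filter level, so the size of its stable difference cannot be read. In the stable pair COL1A1 differed by -0.07, DCN by -0.24, COL1A2 by 0.20 and PDGFRB by 0.50, and the median of the list was 0.20. Leukocyte markers (3 of 5 kept) averaged 5.13 and 5.37, and 5.96 and 5.92, with ITGAM at -0.36 in the stable pair and 0.45 in the transient one. Between the controls CD14 differed by 2.08, ITGAM by -0.08 and CD3E by -0.35. The part of these levels in the member differences was not tested.

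Other genes of the junction and the envelope were read from lists. Of all genes kept, 2.39% were at least 2-fold higher and 2.08% lower in the stable pair. In the transient pair these shares were 0.0464% and 0.126%, and between the controls 10.8% and 4.99%. Of 10 other desmosome genes, 9 were measured and 6 kept, and 0 were 2-fold different in either pair. JUP, which encodes plakoglobin, differed by 0.13 in the stable pair and 0.10 in the transient pair. PERP, a tetraspan desmosomal protein gene, differed by -0.68 and 0.08. Of the 4 other plakins, all kept, 0 were 2-fold different in either pair. DST differed by 0.42 and 0.10 in the same order, and between the controls DST and MACF1, cytoskeletal linkers, were higher in the siRNA control by 1.24 and 1.23. Of 34 cornified envelope genes, 26 were measured, 13 were kept and 1 was 2-fold different within a pair. That was FLG, which encodes the keratin-aggregating protein filaggrin, at 3.47 in the stable pair and 0.36 in the transient pair. FLG read 8.38 with shRNA against ZEB2 and 4.91 in the shRNA control, and 7.64 and 7.28 on the siRNA arrays with and without knockdown, so the shRNA control was again the low array. That 4.91 is close to the filter level, so the size of the stable difference of FLG is uncertain. The transglutaminase genes TGM1 and TGM5, whose products cross-link the envelope, differed by 0.11 and 0.05 in the stable pair and by 0.19 and 0.40 in the transient pair.

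Keratins and hemidesmosome genes held no 2-fold difference within a pair, and 4 transcription factor genes did in the stable pair, where 2.39% of all genes kept were higher and 2.08% lower. In the transient pair these shares were 0.0464% and 0.126%. Of 5 keratins kept out of 8 listed, 0 were 2-fold different in either pair, and KRT19 had the widest difference, at -0.75 in the transient pair and -0.02 in the stable pair. Hemidesmosomes tie the cell to its matrix, and of their 4 genes kept out of 7 listed 0 were 2-fold different. ITGB4 differed by -0.04 and 0.53. Among 5 epithelial transcription regulators kept out of 14 listed, KLF5 was higher by 1.20 in the stable pair (0.10 in the transient pair) and EHF differed by -1.40 and -0.32. KLF5 read 9.16 and 7.96 on the shRNA arrays and 9.05 and 8.95 on the siRNA arrays, knockdown first. EHF read 9.91 and 11.31, and 10.35 and 10.67, in the same order. The shRNA control was thus the low array for KLF5 and the high one for EHF. Of 5 EMT repressor genes kept out of 7 listed, SNAI2 was higher by 1.97 in the stable pair and differed by -0.26 in the transient pair, and ZEB2 itself was the only gene of that list 2-fold lower in both. SNAI2 read 10.85 and 8.88 on the shRNA arrays and 11.42 and 11.68 on the siRNA arrays, knockdown first. The shRNA control was the low array here too, and the siRNA control exceeded it by 2.80. Of 7 genes of desmosome shedding and assembly, all kept, 0 were 2-fold different in either pair, and the sheddase gene ADAM17 had the widest difference, at 0.61 and -0.05. In all of these lists limma called 0 genes after adjustment over all genes.

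The genes whose levels over the 4 arrays were most like those of a member were found by the distance between levels centred on their own mean, for the 3 members that spanned at least 1 unit. For DSP they were TTC7B, at a distance of 0.036 log2 units, and GALC, at 0.063. TTC7B read 8.81 with shRNA against ZEB2, 7.60 in the shRNA control, and 8.77 and 8.89 with and without siRNA against ZEB2. For PPL they were ODAPH, at 0.14, and MPZL2, an epithelial adhesion gene, at 0.41. ODAPH read 4.25 and 3.70 on the shRNA arrays, too dim for the filter, and 6.82 and 5.89 on the siRNA arrays, knockdown first. For PKP2 by its brightest probe set they were SDC4, which encodes a heparan sulphate proteoglycan, at 0.098, and MOB3B, at 0.10. With 4 arrays many genes can share such an order.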

How the data were processed

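Total RNA of 4 MDA-MB-231 cultures, 1 per group, was hybridised to 1 array each. The authors deposited log2 expression per probe set. Per the submitters' processing notes it was made by RMA with affy, and their versions are not given in the sources used here. This method normalizes the arrays to a common distribution, and the sorted arrays lay within 0.0805 of their mean. No scanner files were used, and 0 columns of other series were present. A gene was represented by its brightest single-symbol probe set and kept when its highest value reached 4.77, the 40th percentile. This kept 15082 of 19775 genes and 8 of 10 members. Knockdown minus control was counted at 2-fold (alternatives: 1.5-fold, 3-fold). The only test was limma 3.58.1 in R 4.3.3 (lmFit, eBayes with trend, two-sided, Benjamini-Hochberg, threshold 0.05). The code was checked on simulated data, which does not show that limma could call a change on these 4 arrays. The error in this fit is the gap between the pairs, drawn by eBayes toward a level estimated over all genes kept. It does not come from repeated cultures. Other alternatives were the mean of probe sets, no probe sets ending in _x_at or _s_at, other filters and 3 scalings. Every member was named, and from each other list the genes 2-fold different in either pair or else the one with the widest difference. JUP, MACF1, TGM1, TGM5, CDH1, VIM, DSG1, DSC1, DSG4, KRT1, KRT5, KRT8, KRT10, KRT18, PGR and FOXA1 were named beyond that rule after their values were seen. So were ESR1, GATA3, COL1A1, COL1A2, DCN, PDGFRB, CD3E, CD14, PI3 and CALML5. The members, the lists and these rules were chosen with earlier results of these data known. The comparison of 3′ with 5′ control probe sets was added after the values were seen. Of the list genes, those with no single-symbol probe set were not analysed here. Promoter sequences came from RefSeq (GRCh38.p14), and those of PKP2, PKP3, PPL and EVPL were not used here. Python 3.11.15 and matplotlib 3.10.9 drew the figures.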

Additional observations from a re-analysis of the deposited data

How the results depend on the processing

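The median difference over the members kept depended on the processing. In the stable pair it was -0.13, but 0.15 without probe sets ending in _x_at or _s_at, which leaves out PKP2 and PKP3, 0.14 with the filter at the 60th percentile, which leaves out PKP1 and EVPL, and -0.51 with the siRNA control in place of the shRNA control. Between the controls it was 0.47, but -0.016 when the probe sets of a gene were averaged, 0.083 with no filter and 0.86 with the filter at the 60th percentile. Counts moved with the threshold. At 1.5-fold, the stable pair had 2 members higher and 1 lower, 1 was higher in the transient pair and 4 between the controls, and at 3-fold 0 were higher in the stable pair and 1 between the controls. With the siRNA control in place of the shRNA control, chosen after the values were seen, 0 members were 2-fold higher and 2 were 2-fold lower in the stable knockdown, PPL at -1.59 and PKP2 at -1.002 (its other probe set at 1.31), and DSP turned to -0.10. With averaged probe sets PKP3 differed by -0.54 in the stable pair and PKP2 by 0.13 in the transient pair, and between the controls DSG2 differed by 0.38, PKP2 by -0.34, DSC2 by -0.34 and PKP3 by -0.37, so DSG2 and PKP2 were no longer 1.5-fold higher. The limma count stayed at 0 genes in each of its settings. Median centring, quantile normalization and cyclic loess changed none of the counts. The deposited arrays already shared a common distribution, to within 0.0805, so these scalings could change little. The pairs entered limma as blocks in the main fit. No paired analysis by replicate number was possible because each group has 1 array and the labels carry none, and no replicate could be left out. The number of arrays and the dim end of the RMA scale limit what can be read, and DSG3, DSC3 and PKP1 lie at or near it.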
